A study of Mus musculus with 28 samples.

Results

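Dazl, Ddx4, Nanos2, Nanos3, Dnd1 and Elavl2 are 6 genes of RNA-binding proteins that act in germ cells, and they were followed through the RNA and histone profiles of mouse germ cells of E13.5 embryos. They were chosen by name. Each of the 6 has 1 row among the 22138 genes of the expression table and 1 row among the 22138 promoters of the histone mark table, and all 6 were among the 13518 genes tested. Their identifiers in the files are ENSMUSG00000010592 (Dazl), ENSMUSG00000021758 (Ddx4), ENSMUSG00000051965 (Nanos2), ENSMUSG00000056155 (Nanos3), ENSMUSG00000044595 (Dnd1) and ENSMUSG00000008489 (Elavl2).

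Germ cells of this stage control many messenger RNAs after transcription, by storing, translating or degrading them. DAZL binds messenger RNAs and promotes their translation, and it is needed for germ cells to answer the signals that start male or female differentiation. DDX4, the mouse vasa homologue, is a DEAD-box RNA helicase of germ granules. The NANOS proteins are zinc finger proteins that bring the CCR4-NOT deadenylase complex to messenger RNAs, which are then degraded. NANOS3 keeps migrating germ cells alive, whereas NANOS2 is known as a protein of fetal male germ cells that holds back the meiotic programme. DND1 binds RNA and is a partner of NANOS2, and ELAVL2 belongs to the ELAV family, which binds U-rich stretches and is otherwise best known from neurons.

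The study holds 28 samples from E13.5 gonads: 16 RNA-seq libraries, 10 ChIP-seq libraries and 2 libraries for DNA methylation. Primordial germ cells were sorted as SSEA1+ cells and gonadal somatic cells as SSEA- cells. The germ cells came from a cross with alleles of Setdb1, the gene of an H3K9 methyltransferase. The genotypes were Setdb1 flox/+ (wild type, 1 RNA library per sex), delta/+ (Het1, 2 per sex), flox/- (Het2, 2 per sex) and delta/- (KO, 2 per sex), so every germ cell library of the cross other than wild type carries 1 or 2 inactivated copies. Het1 and Het2 are pooled here as Het (n = 4 per sex). The ChIP libraries called Het are flox/-. Male C57BL/6 wild-type embryos gave 1 germ cell and 1 soma RNA library and the soma H3K9me3 library. The labels used here do not name the Cre driver, and nothing in them tells if 2 replicates came from different embryos or from 1 pool, so p-values measure the spread between libraries, which may be technical.

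RNA levels are RPKM, reads per kilobase of gene scaled to library size, and the read depth of the RNA libraries is unknown. Setdb1 RNA was 37.53 to 58.89 RPKM in the 8 Het libraries and 27.11 to 34.65 RPKM in the 4 KO libraries, without overlap. The summed RNA of 7 germ cell markers was 10.54 RPKM in soma and 294.5 to 1599 RPKM over the germ cell libraries of the cross. The sum of 7 stromal markers was 1774 RPKM in soma and at most 52.38 RPKM in germ cells. In the germ cells of the cross, 4 libraries stood apart on the second principal component (14.5% of the variance): male Het1 replicate 1, male KO replicate 1, female Het2 replicate 1 and female KO replicate 1. The erythroid marker sum was 398.1 RPKM in female Het2 replicate 1 and at most 67.03 RPKM in every other library of the cross. For the chosen genes, results that change when those 4 libraries are left out are given both ways. That check was added after the data were seen. No such check is given for genes of the partner, target and marker lists or for relations between genes.

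All 6 genes had more RNA in germ cells than in soma, from 1 C57BL/6 library each, with no replicate and no test. Dazl was at 607.3 RPKM in germ cells and 1.89 RPKM in soma, and Ddx4 at 273.0 and 1.28 RPKM. Elavl2 was at 76.66 and 2.37 RPKM, and Dnd1 at 70.73 and 1.85 RPKM. Nanos3 was at 9.65 and 0.72 RPKM, and Nanos2 at 6.69 and 0.35 RPKM. The RNA level in germ cells thus ran in the order Dazl, Ddx4, Elavl2, Dnd1, Nanos3, Nanos2, with Elavl2 and Dnd1 close together. On the scale of log2(RPKM + 1), the difference between germ cells and soma was 7.72 for Dazl, 6.91 for Ddx4, 4.65 for Dnd1, 4.53 for Elavl2, 2.63 for Nanos3 and 2.51 for Nanos2. These 6 of 6 genes were past 2-fold, as were 17.5% of 13457 genes.

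**Figure D1:**
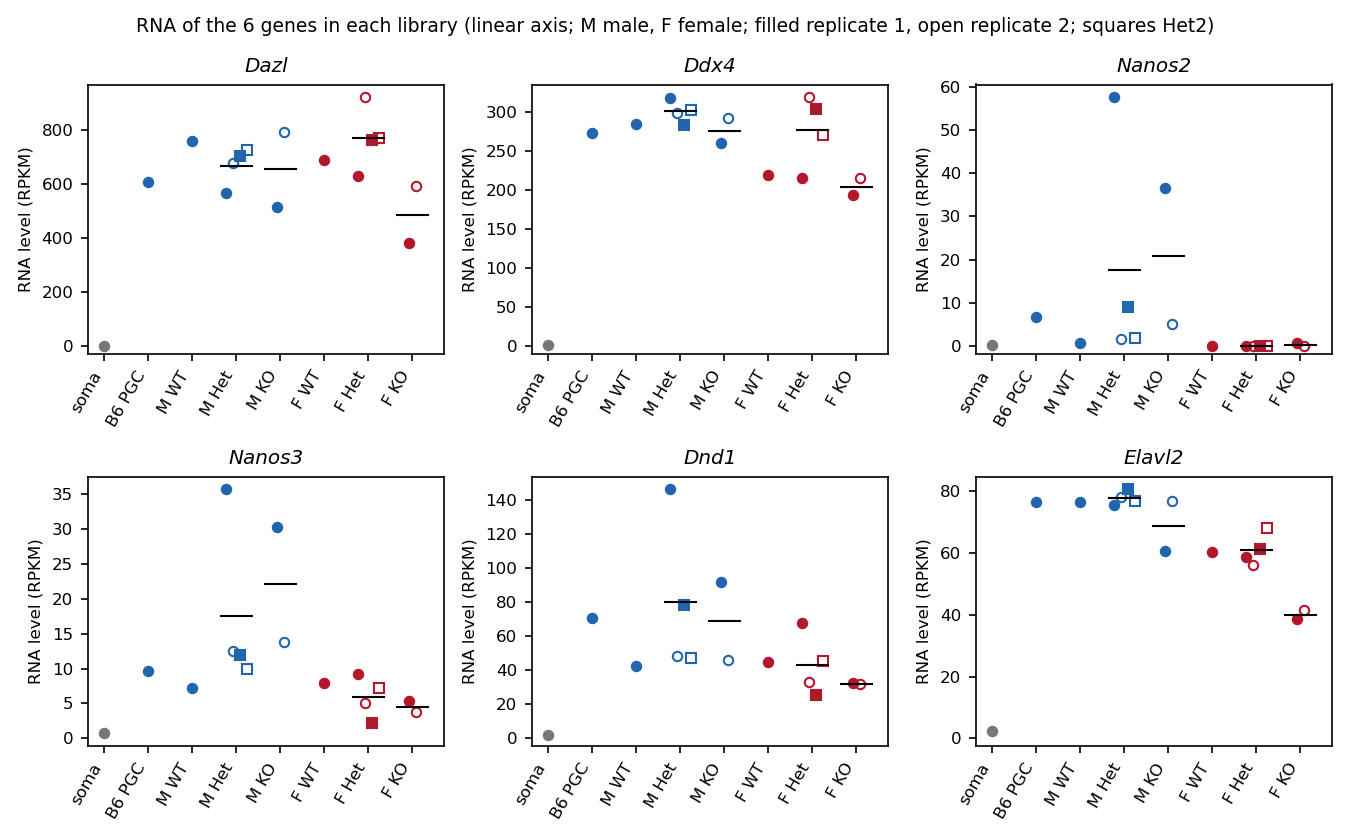
RNA level (RPKM, linear axis) of each gene in soma (grey), male (blue) and female (red) germ cell libraries, with 1 point per library and a horizontal bar at the mean of each Het or KO group. Nanos2, Nanos3 and Dnd1 are highest in male Het1 replicate 1 and male KO replicate 1, and Elavl2 is lowest among germ cells in the 2 female KO libraries.

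Male and female germ cells part at this stage, females toward meiosis and males toward arrest, and the first comparison was female against male in the Het controls. Of the 6 genes, 3 had less RNA in females and passed the test (limma, Benjamini-Hochberg adjusted p under 0.05 over all genes): Nanos2, Nanos3 and Elavl2. Of all genes tested, 31.9% passed, 17.6% higher and 14.3% lower in females, and the groups did not overlap for 31.2% of genes, 1889 of which were lower in females. The median difference of the 6 genes was -0.584 on the log2(RPKM + 1) scale, against 0.0473 over all genes tested. Centring each library on its median moved the share of calls that were higher in females from 55.0% to 44.8%, and Nanos2, Nanos3 and Elavl2 still passed. Summed germ cell markers were 1025 to 1599 RPKM in male and 294.5 to 778.3 RPKM in female Het, with 4 of 7 lower in females, and summed Sertoli markers were 24.08 to 68.17 and 30.08 to 51.68 RPKM, with 3 of 8 lower. Their part in the differences between the sexes was not tested.

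Nanos2 RNA was 57.6, 1.59, 9.05 and 1.96 RPKM in male Het1 replicates 1 and 2 and male Het2 replicates 1 and 2. The wild-type male was at 0.79 RPKM and the C57BL/6 male at 6.69 RPKM. In females it was listed at 0 RPKM in all 4 Het libraries and at 0.1 RPKM in the wild type. Every male germ cell library was therefore above every female Het library, while the males themselves ranged from 0.79 to 57.6 RPKM. The limma test gave an adjusted p of 0.014, and no fold is given because the female Het libraries are listed at 0. Without the 4 libraries that stood apart, the adjusted p was 0.013. With Het1 alone (n = 2 per sex) it was 0.116 and with Het2 alone 0.0785, in a range of 0.00113 to 0.116 over 22 alternatives.

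Nanos3 RNA was 35.78, 12.55, 11.92 and 10.0 RPKM in the male Het libraries, in the same order, and 9.19, 5.06, 2.19 and 7.22 RPKM in the female Het libraries. All males of the Het groups were above all females, although the lowest male, at 10.0 RPKM, was close to the highest female, at 9.19 RPKM. The wild-type male (7.24 RPKM) lay inside the female range and below the wild-type female (7.94 RPKM), opposite to the direction in Het. The group means were 17.56 ± 12.2 RPKM (SD, n = 4) in males and 5.915 ± 3.0 RPKM (SD, n = 4) in females, 2.97-fold lower in females. The log2(RPKM + 1) difference was -1.36 (SE 0.42, limma adjusted p = 0.026). This call was lost without male Het1 replicate 1 (-0.97, adjusted p = 0.0633), without female Het1 replicate 2 (0.0593) and without female Het2 replicate 1 (0.0706). It was lost too without the 4 libraries that stood apart (-0.64, adjusted p = 0.0513) and with no filter on low values (0.0541), and the adjusted p ranged from 0.0168 to 0.123 over 22 alternatives.

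Elavl2 was the most even of the called genes. Its RNA was 75.61, 78.19, 80.77 and 76.69 RPKM in the male Het libraries and 58.63, 55.99, 61.19 and 68.08 RPKM in the female Het libraries. The highest female was below the lowest male, and the wild-type libraries, at 76.47 RPKM in the male and 60.2 RPKM in the female, lay within the Het ranges of their sex. The means were 77.81 ± 2.24 RPKM and 60.97 ± 5.19 RPKM (SD, n = 4 each), 1.28-fold lower in females, with a log2(RPKM + 1) difference of -0.35 (SE 0.11, limma adjusted p = 0.028). The direction held under all 22 alternatives, with differences from -0.42 to -0.22, but the adjusted p ranged from 0.00799 to 0.336. Quantile normalization gave -0.22 with an adjusted p of 0.153. The call was also lost when any 1 of 5 Het libraries was left out (male Het1 replicate 2, either male Het2 replicate, either female Het1 replicate), with adjusted p from 0.052 to 0.0836.

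Dnd1, Dazl and Ddx4 did not pass. Dnd1 RNA was 146.73, 48.17, 78.69 and 47.31 RPKM in male Het and 68.04, 33.37, 25.38 and 45.37 RPKM in female Het libraries. The groups overlapped through female Het1 replicate 1, which at 68.04 RPKM was above 2 of the males. The wild-type libraries were at 42.63 RPKM in the male and 45.09 RPKM in the female, opposite to the direction in Het. The log2(RPKM + 1) difference was -0.82 (SE 0.37, limma adjusted p = 0.11). Without female Het1 replicate 1 it was -1.06 and passed (adjusted p = 0.0453, range 0.0453 to 0.521 over 22 alternatives). Without the 4 libraries that stood apart it was -0.26. Dazl was at 667.3 ± 69.7 RPKM in male Het and 771.3 ± 119 RPKM in female Het (SD, n = 4 each), and the difference of 0.20 had a 95% interval from -0.22 to 0.62. Ddx4 was at 300.3 ± 14 and 276.8 ± 46.0 RPKM (SD, n = 4 each), and its difference of -0.13 had an interval from -0.43 to 0.16. Ddx4 turned to 0.11 under quantile normalization.

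**Figure D2:**
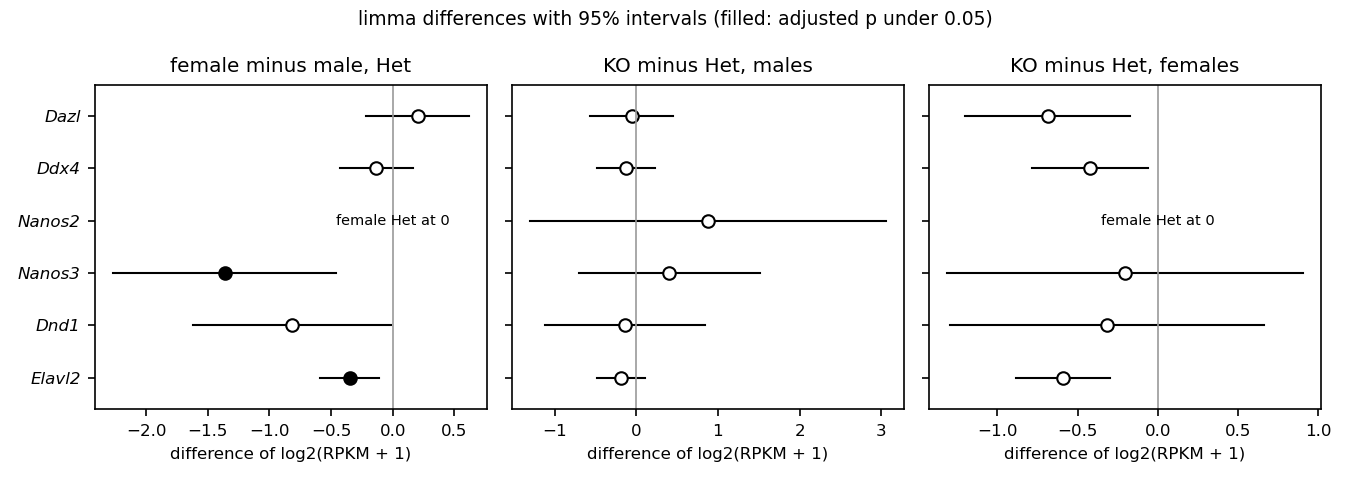
Differences of log2(RPKM + 1) from limma with 95% intervals for female minus male Het (n = 4 each) and for KO (n = 2) minus Het (n = 4) in each sex. Filled points passed an adjusted p of 0.05. Nanos2 is not drawn where the female Het libraries are listed at 0. Nanos3 and Elavl2 lie below 0 in females against males, and no gene passed for KO against Het.

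Genes that work with these proteins were taken from lists chosen for this purpose, with earlier results of these data known. Of the CCR4-NOT deadenylase, 10 of 11 listed genes were tested and 2 passed, a share below the 31.9% of all genes. Cnot6l, a catalytic subunit, was higher in female Het (0.72 on the log2 scale, limma adjusted p = 0.0148) and Cnot3, a subunit of the NOT module, lower (-0.38, adjusted p = 0.0427). Of 9 tested germ granule and piRNA genes, 1 passed, which is also below 31.9%. This was Tdrd7, a tudor domain protein, at 19.82 ± 6.87 RPKM in male and 35 ± 11.9 RPKM in female Het (SD, n = 4 each, log2 difference 0.79, adjusted p = 0.0282). The list medians were 0.1915 for the deadenylase and 0.08528 for the germ granule genes, against 0.0473 over all genes.

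Among 21 tested other RNA-binding proteins, 7 were higher and 2 lower in female Het, beside 17.6% higher and 14.3% lower of all genes, with a list median of 0.3328. The gene listed under the symbol Gm1564, now named Meioc, encodes a meiosis-specific partner of YTHDC2 and rose from 3.292 ± 0.695 RPKM in male to 84.32 ± 57.5 RPKM in female Het (SD, n = 4 each, log2 difference 4.07, adjusted p = 9.78e-06). Boll, the third member of the DAZ family, was at 2.595 ± 0.183 and 14.96 ± 10.1 RPKM (1.94, adjusted p = 0.00115). Ybx2, a Y-box protein that binds stored messenger RNAs of germ cells, was at 16.61 ± 4.67 and 45.53 ± 6.64 RPKM (1.43, adjusted p = 0.000189). Dazap1, the DAZ-associated protein, was lower in females (-0.60, adjusted p = 0.00693), as was Cpeb1, which binds cytoplasmic polyadenylation elements (-0.47, adjusted p = 0.00478). The Nanos paralogue Nanos1, named for its family and not for the size of its change, was higher in female Het (0.82, adjusted p = 0.013). This was the opposite direction to Nanos2 and Nanos3. The wild-type libraries were at 7.42 RPKM in the male and 6.88 RPKM in the female for Nanos1, opposite to its direction in Het.

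Of 6 messenger RNAs reported to be controlled by members of the group, 3 were higher and 1 lower in female Het, beside the same 17.6% and 14.3% of all genes, with a median of 0.8364. Stra8, the gatekeeper of meiosis and a reported target of NANOS2, was 0 to 2.3 RPKM in male Het and 73.35 to 322.8 RPKM in female Het libraries (log2 difference 6.59, adjusted p = 5.53e-07). Taf7l, a germ cell form of a transcription initiation factor, differed by 2.79 (adjusted p = 0.0192), and Sycp3, a synaptonemal complex gene bound by DAZL, by 1.97 (adjusted p = 0.00452). Cdkn1b, a cell cycle inhibitor, was lower in females (-0.69, adjusted p = 0.0427). Of 13 meiotic entry genes 12 were higher in females, led by Stra8, Msx2 (3.96, adjusted p = 2.6e-08) and Msx1 (3.87, adjusted p = 5.38e-06), with a list median of 1.545. Of 6 tested male fate genes 5 were lower, led by Lefty2 (-6.86, adjusted p = 3.41e-09) and Lefty1 (-5.89, adjusted p = 4.54e-10), both inhibitors of Nodal signalling, with a list median of -3.841.

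The second comparison asked what happened to the 6 RNAs when Setdb1 was deleted. In males none passed: 0 of 6 by limma with adjusted p values of 1, and 0 of 6 at an unadjusted p under 0.05, where 0.614% of all genes passed (83, all higher) and 615 had an unadjusted p under 0.05. The median difference over the 6 was -0.0914, against 0.0272 over all genes. Dazl was 514.23 and 792.57 RPKM in the 2 male KO libraries, one below and one above the whole Het range of 567.1 to 724.6 RPKM. Its log2 difference of -0.06 had a 95% interval from -0.57 to 0.45. Ddx4 was 259.34 and 291.58 RPKM, with a difference of -0.13 and an interval from -0.49 to 0.23. Elavl2 was 60.6 and 76.96 RPKM, and only replicate 1 lay below the Het range.

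Nanos2 was 36.46 and 5.07 RPKM in male KO replicates 1 and 2, Nanos3 30.33 and 13.88 RPKM, and Dnd1 91.75 and 46.05 RPKM. For all 3 genes replicate 1 was the higher of the pair. The differences from Het were 0.88 for Nanos2, 0.40 for Nanos3 and -0.14 for Dnd1, each with an interval that crosses 0 (from -1.30 to 3.06, from -0.71 to 1.52 and from -1.12 to 0.84). With male KO replicate 1 left out, which leaves 1 male KO library, Nanos2 turned to -0.43 and Nanos3 to -0.13, and Dnd1 turned to 0.20 without male Het1 replicate 1 and to 0.35 without male KO replicate 2. Summed Leydig markers were higher in both male KO libraries, 27.49 to 59.79 RPKM against 4.34 to 7.58 RPKM in male Het, with 4 of 6 genes passing. The same sum was 21.57 RPKM in the wild-type male of the cross, 13.07 RPKM in C57BL/6 germ cells and 751.5 RPKM in soma, so the wild type lay nearer to KO replicate 2 than to Het. Their part in these values was not tested.

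In females the KO libraries were lower for Elavl2, Dazl and Ddx4 without overlap, but none passed. Elavl2 was 38.58 and 41.58 RPKM in the 2 KO libraries, against 55.99 to 68.08 RPKM in the 4 Het libraries and 60.2 RPKM in the wild type. The 2 KO libraries were thus close to each other and well under all 5 controls. Their mean was 40.08 ± 2.12 RPKM (SD, n = 2), 1.52-fold lower than in Het. The log2(RPKM + 1) difference was -0.59 (SE 0.13, 95% interval from -0.88 to -0.30), with an unadjusted p of 0.000762 in limma, rank 105 of 13518, and an adjusted p of 0.098. It passed in 2 of 22 alternatives, 1 of which pooled the wild-type libraries with Het (adjusted p = 0.0405), and over the 22 the difference was -0.73 to -0.51 and the adjusted p 0.0405 to 1.

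Dazl was 380.7 and 591.06 RPKM in female KO against 629.9 to 921.6 RPKM in female Het, with the wild type at 688.7 RPKM. Both KO libraries were below all controls, but they differed from each other by more than replicate 2 differed from the lowest Het library. The mean was 485.9 ± 149 RPKM (SD, n = 2), 1.59-fold lower, and the log2 difference was -0.69 (SE 0.24, limma adjusted p = 0.263). Without the 4 libraries that stood apart, which leaves 1 female KO library, it was -0.37. Ddx4 was 193.75 and 214.59 RPKM in female KO against 214.8 to 318.8 RPKM in female Het. Here KO replicate 2 touched the lowest Het library, Het1 replicate 1 at 214.8 RPKM, and the wild type was at 218.9 RPKM. The log2 difference was -0.42 (SE 0.17, limma adjusted p = 0.318).

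Of the 6 genes, 0 passed in females and 3 had an unadjusted p under 0.05, where 0.407% of all genes passed (55), 0.0074% lower, and 1670 genes had an unadjusted p under 0.05. Groups with KO below Het without overlap were found for 5.62% of all genes. The median difference of the 6 was -0.369, against 0.0718 over all genes. Centring on library medians took the median of all genes from 0.0718 to -0.0699, and under it the differences of Elavl2, Dazl and Ddx4 were -0.73, -0.83 and -0.56. Nanos3 (-0.20) and Dnd1 (-0.31) had intervals that crossed 0. Nanos2 was listed at 0.61 RPKM in female KO replicate 1 and at 0 in replicate 2. Sertoli markers summed to 72.53 to 82.38 RPKM in female KO against 30.08 to 51.68 RPKM in female Het, led by Cldn11 and Fgf9, with Amh at 0.57 and 0.22 RPKM in KO and 0 of 8 genes passing. The wild-type female, at 65.86 RPKM, was nearer to KO than to Het in this sum, with Cldn11 at 33.21 RPKM against 36.4 to 42.47 RPKM in KO. Stromal markers summed to 37.79 to 52.38 RPKM in KO, 14.26 to 39.97 RPKM in Het and 33.2 RPKM in the wild type, and 7 germ cell markers to 384.7 to 513.4, 294.5 to 778.3 and 838.1 RPKM. Of the 7 germ cell markers, 0 had a positive log2 difference between KO and Het (median -0.30). All 8 Sertoli and all 7 stromal markers had a positive one (medians 0.44 and 0.64), and 0 genes of these 3 lists passed. Because these are bulk samples, fewer cells of a type and less RNA per cell cannot be told apart, and the part of the markers in these values was not tested.

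Averaged over both sexes, 0 of 6 passed and 3 had an unadjusted p under 0.05, where 1.04% of all genes passed and 1708 had an unadjusted p under 0.05. Elavl2 was again the closest, at -0.39 (SE 0.10, limma adjusted p = 0.0858), and it passed in 3 of 22 alternatives, among them no filter on low values (0.0454) and wild type pooled (0.0386), in a range of 0.0386 to 0.476 over the 22. The KO effect did not pass as different between females and males for any of the 6 (0.0518% of all genes passed, 494 had an unadjusted p under 0.05, and 0 of the 6 did). All 6 estimates of that difference were negative, with a median of -0.471 against 0.0415 over all genes, and every interval crossed 0. That of Nanos2 says little, because its female Het libraries are listed at 0. The share of all genes with a negative estimate was not computed. The estimate for Elavl2 was -0.41 (95% interval from -0.82 to 0.01, limma unadjusted p = 0.053). The 2 heterozygous genotypes were not told apart by any of the 6 either: 0 passed and 0 had an unadjusted p under 0.05, against 0.0148% of all genes passed and 164 at an unadjusted p under 0.05. Nanos3 came nearest, 0.76 higher in Het1 (95% interval from -0.10 to 1.62).

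Of the listed partner genes, D1Pas1 alone passed in KO. It is a germ cell DEAD-box helicase and a close copy of Ddx3x, so that reads may be split between them. D1Pas1 was 23.41 and 21.03 RPKM in female KO against 3.21 to 10.29 RPKM in female Het, a log2 difference of 2.05 (SE 0.37, limma adjusted p = 0.0369). In males it was 11.84 and 12.25 RPKM against 2.63 to 5.96 RPKM, without overlap, and did not pass (1.55, adjusted p = 0.136). Over both sexes it passed (1.80, adjusted p = 0.00333). Where no gene of a list passed, the one with the smallest p is named. In males these were Cnot6 (0.25) for the deadenylase, Gtsf1 (1.75) for the germ granule genes, Taf7l (1.96) for the target messenger RNAs, Sycp1 (0.92) for meiotic entry and Tdgf1 (0.31) for male fate, each with an adjusted p of 1. In females they were Cnot2 (-0.52, adjusted p = 0.208), Gtsf1 (1.37, 0.497), Cdkn1b (0.54, 0.484), Msx2 (-0.54, 0.338) and Dnmt3a (0.50, 0.264), in the same order of lists. Over both sexes they were Cnot2 (-0.29, 0.292), Gtsf1 (1.56, 0.215), Taf7l (1.79, 0.283), Msx2 (-0.33, 0.419) and Dnmt3a (0.30, 0.32). Stra8 was 158.4 to 228.5 RPKM in female KO, inside the range of female Het.

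Across libraries of 1 sex, some of the 6 genes moved together. These relations were looked for after the data were seen, over 25 pairs (15 in males, 10 in females), on log2(RPKM + 1). Permutation p-values were adjusted over the 25 pairs, and 3 pairs passed by both Pearson's r and Spearman's rho. The share of all gene pairs that pass was not computed, so the relations are not shown to be particular to these genes. In 8 male germ cell libraries Nanos2 and Dnd1 gave r = 0.942 (exact permutation p = 0.000446, adjusted 0.0112) and rho = 0.905 (p = 0.00456, adjusted 0.0453). Leaving out the 2 libraries farthest in Nanos2, male Het1 replicate 1 and male KO replicate 1, gave r = 0.842. Nanos2 and Nanos3 gave r = 0.914 (exact permutation p = 0.00868, adjusted 0.0543) and rho = 0.69 (p = 0.0694, adjusted 0.289) in males, and r fell to 0.508 without the same 2 libraries, so that this relation rests on them. The same holds for Nanos3 and Dnd1 in males, with r = 0.819 (exact permutation p = 0.0229, adjusted 0.105) and 0.177 without them. Replicate 1 was above replicate 2 for Nanos2, Nanos3 and Dnd1 in male Het1, Het2 and KO alike. In male Het2, which stayed in, replicates 1 and 2 were at 9.05 and 1.96 RPKM for Nanos2. For Dnd1 they were at 78.69 and 47.31 RPKM. The permutations treat the libraries of 1 sex as exchangeable, and the part of replicate number in these relations was not tested.

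In 7 female libraries Nanos3 and Dnd1 gave r = 0.911 (exact permutation p = 0.00159, adjusted 0.0132) and rho = 0.929 (p = 0.00675, adjusted 0.0453), and r = 0.92 without the 2 farthest. Dazl and Ddx4 gave r = 0.85 (exact permutation p = 0.00119, adjusted 0.0132) and rho = 0.964 (p = 0.00278, adjusted 0.0453) in females, and 0.869 without the 2 farthest. In males Dazl and Ddx4 gave r = 0.313 (exact permutation p = 0.447, adjusted 0.588) and rho = 0.238 (p = 0.582, adjusted 0.826). Male Dazl ran against Dnd1, with rho = -0.881 (exact permutation p = 0.00724, adjusted 0.0453) and r = -0.798 (p = 0.0268, adjusted 0.105, -0.645 without the 2 farthest). Whether the relations differ between the sexes was not tested. Each relation includes KO libraries, and the male ones include the C57BL/6 library.

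**Figure D3:**
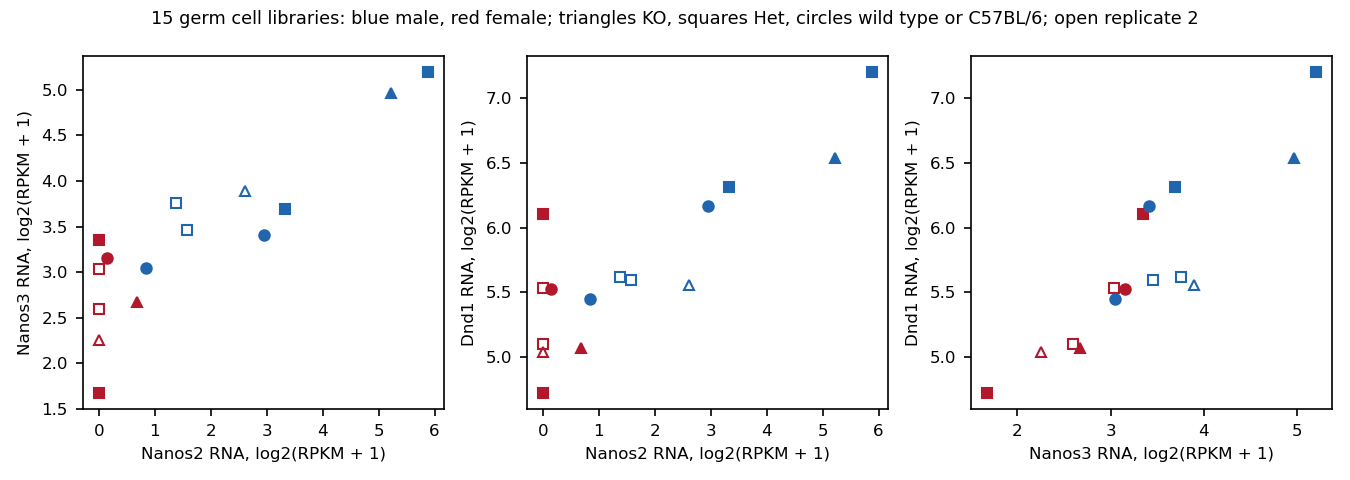
RNA of Nanos2, Nanos3 and Dnd1 against each other in 15 germ cell libraries, log2(RPKM + 1) on both axes, blue for male and red for female, with triangles for KO, squares for Het and circles for wild type or C57BL/6. Male Het1 replicate 1 and male KO replicate 1 lie at the upper right of each panel, and the female libraries sit near 0 for Nanos2.

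Each gene was compared with all other tested genes over the 14 germ cell libraries of the cross, and the 3 with the smallest root mean square difference of centred log2(RPKM + 1) were named for 5 of the 6. These profiles are a description and carry no test. For Dnd1 they were Nlrp14 (0.226), Pou5f1 (0.228) and Zfp428 (0.228), against a spread of Dnd1 itself of 0.645. Nlrp14 was only at 0 to 3.45 RPKM in these libraries, a level at which adding 1 RPKM compresses the profile. Pou5f1, the pluripotency factor OCT4, was at 278.41 RPKM in male Het1 replicate 1 and 45.12 RPKM in female Het2 replicate 1, the same 2 libraries that were highest and lowest for Dnd1. Nanos3 was closest to Dppa4 (0.329), a gene of pluripotent and germ cells, to Rsph9 (0.351) and to X99384 (0.36), against its own spread of 0.922. Dppa4 was likewise highest in male Het1 replicate 1 (261.91 RPKM) and lowest in female Het2 replicate 1 (22.01 RPKM).

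Nanos2 was closest to Egr4 (0.459), an early growth response transcription factor, then Fbxo41 (0.713) and Krt17 (0.843), against its own spread of 1.92. Egr4 was 27.04 RPKM in male Het1 replicate 1 and 21.07 RPKM in male KO replicate 1, and at most 7.45 RPKM in the other libraries of the cross. Elavl2 was closest to Blm (0.112), a RecQ DNA helicase, Rffl (0.114) and Tle4 (0.141), with an own spread of 0.317. Dazl was closest to Eri2 (0.133), Itfg1 (0.139) and the mitotic checkpoint kinase Ttk (0.142), with an own spread of 0.305. Ddx4 had an own spread of 0.23. None of the 6 was among the 3 nearest of another.

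**Figure D4:**
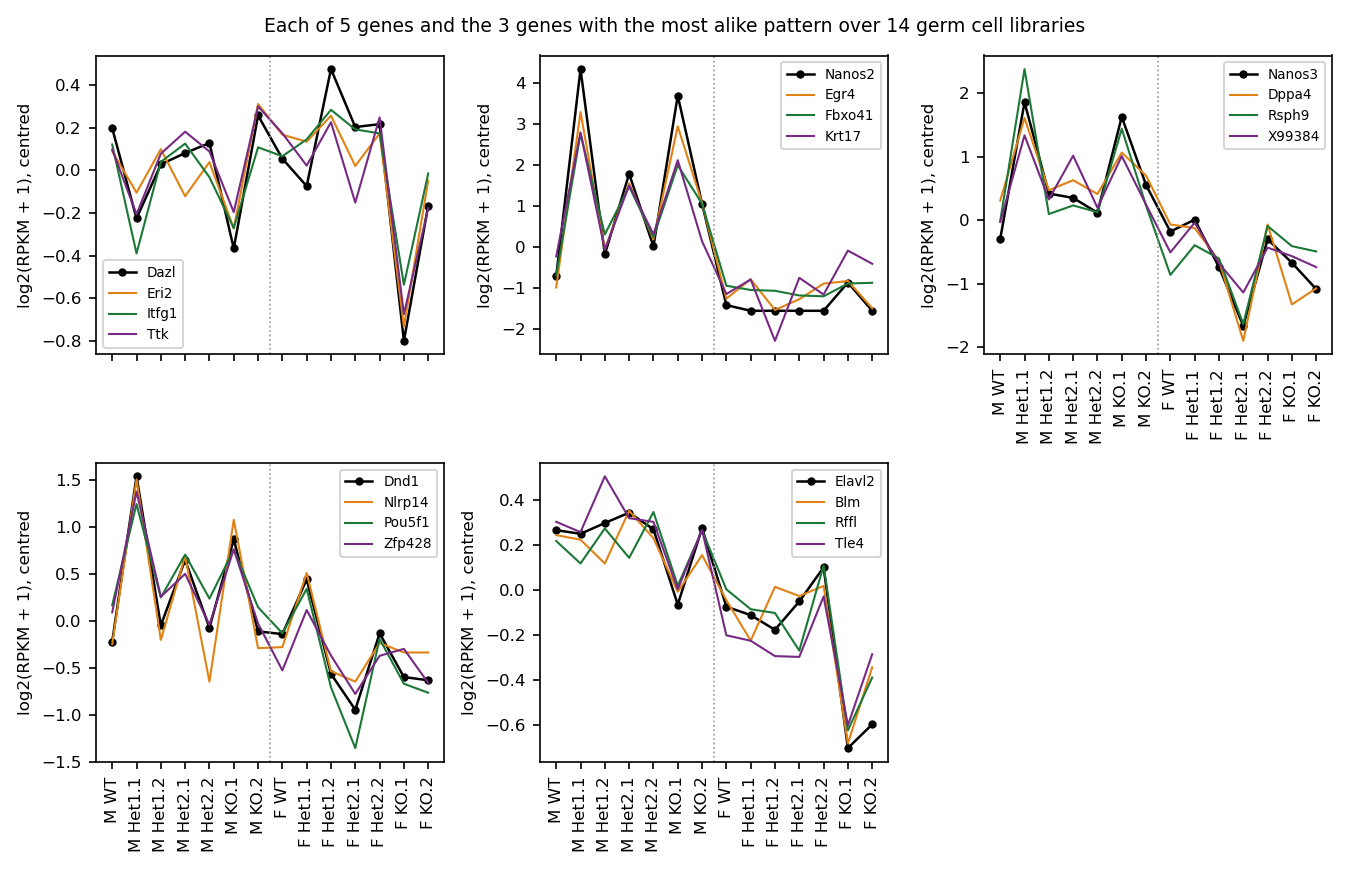
Each of 5 genes (black) and the 3 genes most alike (coloured) over 14 germ cell libraries, as log2(RPKM + 1) centred on each gene's mean, males left and females right of the dotted line. The curves of Nanos2, Nanos3 and Dnd1 peak in male Het1 replicate 1 and male KO replicate 1, and those of Dazl and Elavl2 have their lowest point in female KO replicate 1.

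The promoters of Dazl, Ddx4, Nanos2, Nanos3 and Elavl2 differ in CpG content, the sites that DNA methylation uses, and that of Dnd1 was not analysed here. RefSeq promoters of build GRCm38.p6, from 250 bases before to 50 bases after the start, are shown for 4 of them, those with the most and the fewest CpG. Capitals mark CpG. The build of the deposited tables is mm9, so these positions were not joined to the tables, and whether the marks described next were measured around the same starts was not checked.
Dazl, chr17:50293571-50293870, minus strand: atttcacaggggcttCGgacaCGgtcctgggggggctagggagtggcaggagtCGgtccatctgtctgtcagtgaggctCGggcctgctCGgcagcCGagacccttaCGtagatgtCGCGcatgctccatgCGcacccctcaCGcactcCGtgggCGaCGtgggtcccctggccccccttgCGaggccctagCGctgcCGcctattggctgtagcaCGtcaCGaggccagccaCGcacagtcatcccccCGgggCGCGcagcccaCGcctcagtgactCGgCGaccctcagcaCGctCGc
Ddx4, chr13:112652261-112652560, minus strand: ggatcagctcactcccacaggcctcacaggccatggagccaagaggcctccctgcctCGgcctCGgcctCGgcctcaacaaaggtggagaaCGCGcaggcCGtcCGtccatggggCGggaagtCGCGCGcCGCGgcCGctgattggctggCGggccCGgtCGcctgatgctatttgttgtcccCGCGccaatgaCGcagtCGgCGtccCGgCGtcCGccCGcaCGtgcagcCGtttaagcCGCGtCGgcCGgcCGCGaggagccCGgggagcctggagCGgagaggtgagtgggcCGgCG
Nanos2, chr7:18987274-18987573, plus strand: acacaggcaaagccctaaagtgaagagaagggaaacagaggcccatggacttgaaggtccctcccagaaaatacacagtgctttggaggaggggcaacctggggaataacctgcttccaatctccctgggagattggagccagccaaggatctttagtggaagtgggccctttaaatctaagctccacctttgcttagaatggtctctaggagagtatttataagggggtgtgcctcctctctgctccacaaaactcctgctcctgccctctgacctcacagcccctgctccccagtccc
Nanos3, chr8:84176503-84176802, minus strand: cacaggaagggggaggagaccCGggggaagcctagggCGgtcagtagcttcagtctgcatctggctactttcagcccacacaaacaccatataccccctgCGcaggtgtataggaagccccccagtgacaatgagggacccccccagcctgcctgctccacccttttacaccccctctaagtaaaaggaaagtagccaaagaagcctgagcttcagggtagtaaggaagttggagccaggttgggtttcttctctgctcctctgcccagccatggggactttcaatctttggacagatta
The Ddx4 stretch holds 38 CpG, more than 95% of 32851 promoters of the table, and the Dazl stretch 28, more than 85.8%. Nanos3 holds 3 and Nanos2 holds 0, against a median of 7. The 6 starts listed for Elavl2 on chromosome 4 hold 10 to 27 CpG. The E-box CACGTG, searched on both strands, occurs 1 time in the Ddx4 stretch, where it begins 29 bases before the start, and in 7.15% of all promoters. The core of the E2F motif, GCGGGA on either strand, occurs 1 time in Ddx4, beginning 136 bases before the start, in 3 of the 6 Elavl2 starts and in 6562 of the 32851 promoters. The stretches of those 3 Elavl2 starts overlap and hold the same 1 site. Neither motif was found in the stretches of Dazl, Nanos2 or Nanos3.

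H3K9me3, the mark that SETDB1 lays down, was measured within 1 kb of either side of each start, with 1 library per sex and genotype and therefore no test. In germ cells the genes fell into a higher and a lower trio. Ddx4 was at 0.627, 0.909, 0.591 and 0.58 RPKM in male Het, male KO, female Het and female KO, above 93.8% to 97.8% of all promoters. Nanos2 was at 0.562, 0.608, 0.556 and 0.453 RPKM, above 92.2% to 93.0%, and Dazl at 0.341, 0.63, 0.363 and 0.493 RPKM, above 80.7% to 93.8%. These levels, although high in rank, are under 1 RPKM, which 0.718% to 1.52% of promoters reached. Nanos3, Dnd1 and Elavl2 were between 0.043 and 0.231 RPKM, around or under the median promoter.

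Deleting Setdb1 was not followed by a 2-fold change of H3K9me3 in both sexes at any of the 6 promoters. None of them reached the level of 1 RPKM at which promoters were called, where 7.14% of 238 promoters were lower in KO. As values below that level, Dazl was 0.73 higher in male KO and 0.36 higher in female KO, as log2 ratios after adding 0.1 RPKM. Ddx4 differed by 0.47 and -0.02, Nanos2 by 0.10 and -0.25, Nanos3 by 0.75 and -0.10, Dnd1 by 0.12 and -0.69, and Elavl2 by -0.14 and 0.09. Dazl thus moved the same way in both sexes, upward, and Dnd1 had the lowest ratio, in females.

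In C57BL/6 male soma, H3K9me3 was 1.352 RPKM at Dazl, 1.404 at Elavl2, 1.276 at Dnd1, 1.043 at Nanos3, 1.022 at Nanos2 and 0.779 at Ddx4. All 6 values were above those of male Het germ cells, and Elavl2, Dazl and Dnd1 exceeded 98.4%, 97.7% and 96.1% of promoters in soma. The log2 ratios of germ cells to soma were -3.00 for Nanos3, -2.90 for Elavl2, -2.77 for Dnd1, -1.72 for Dazl, -0.76 for Nanos2 and -0.27 for Ddx4. The 5 promoters other than Ddx4 reached the level of 1 RPKM for a call through soma alone, which nearly fixes a lower value in germ cells. That 4 of these 5 were past 2-fold lower, as were 79.4% of 4306 promoters, is therefore given as a description and nothing is read from it. The median promoter was 0.721 RPKM in soma and 0.127 RPKM in male Het germ cells. When both libraries were scaled to 1 promoter median, the ratios of Nanos3 (-1.55) and Elavl2 (-1.07) were still past 2-fold. Both genes then lay under 1 RPKM in soma and germ cells and were no longer called. Dnd1 was at -0.95, and Dazl (0.47), Nanos2 (1.49) and Ddx4 (1.97) turned to higher in germ cells. Nanos2 and Ddx4 were the calls under this scaling. By rank within its library, Dnd1 went from above 96.1% of promoters in soma to above 40.0% in male Het germ cells and Elavl2 from 98.4% to 40.0%.

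H3K27me3, the Polycomb mark, was highest at Nanos2 in all 4 germ cell libraries. Nanos2 was at 1.507 RPKM in male Het, 1.147 in male KO, 1.066 in female Het and 0.623 in female KO, above 96.1%, 91.3%, 93.0% and 83.8% of promoters. The other 5 promoters were at 0.104 to 0.63 RPKM, with Nanos3 lowest in each library. Nanos2 was the 1 promoter of the 6 that reached the level for a call between KO and Het. Its log2 ratios were -0.37 in males and -0.69 in females, under 2-fold (0.0556% of 1800 promoters were past 2-fold lower in both sexes). The other 5 promoters, all below that level, were at 0.07 to 0.78 in males and at -0.84 to -0.23 in females. Of all promoters, 11.9% reached 1 RPKM in male Het, 11.4% in male KO, 8.28% in female Het and 4.84% in female KO. In Het, female against male, Nanos2 was at -0.46 and also under 2-fold (0.393% of 2796 promoters were lower and 1.0% higher). Males, which had the higher Nanos2 RNA, also had the higher value of H3K27me3 at its start, from 1 ChIP library per sex. These libraries differ in scale. In male Het 11.9% of promoters reached 1 RPKM and in female Het 8.28%, while the median promoter was at 0.254 and 0.296 RPKM. Whether the higher male value is particular to Nanos2 was not tested.

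**Figure D5:**
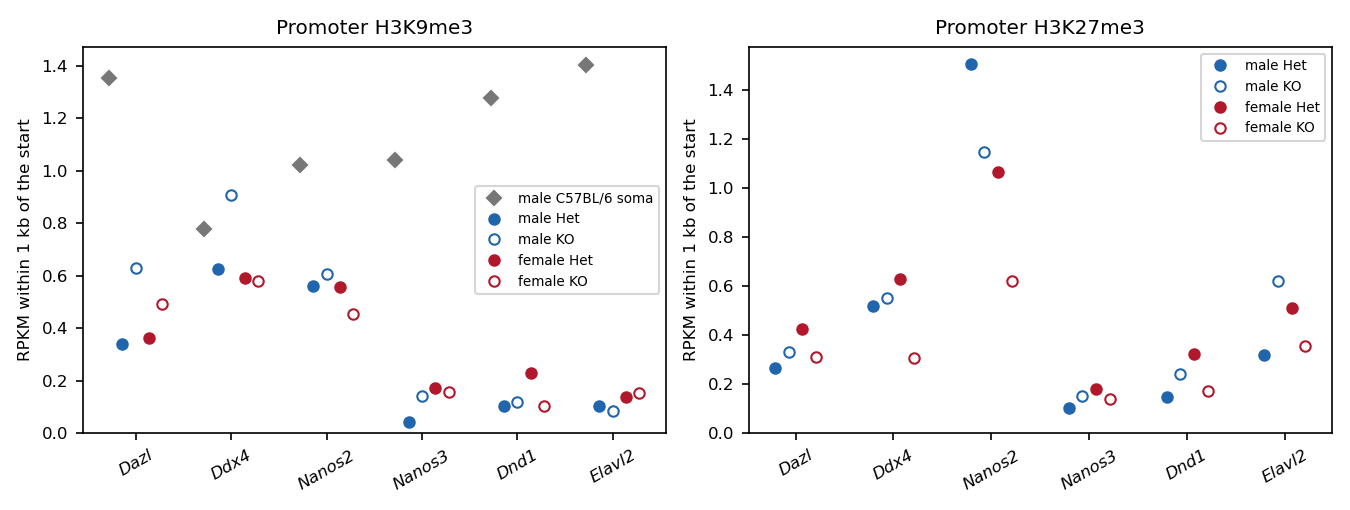
H3K9me3 (left) and H3K27me3 (right) within 1 kb of the start of each gene, in RPKM, with 1 point per library: grey diamonds for soma, blue for male and red for female germ cells, filled for Het and open for KO. Soma is the highest point for 5 of the 6 genes in H3K9me3, with Ddx4 in male KO above it, and Nanos2 stands above the other genes in H3K27me3.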

How the data were processed

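RNA-seq and ChIP-seq values were used as the authors deposited them. Per the file headers both tables hold RPKM, 1 value per Ensembl gene for RNA and 1 value within 1 kb of either side of each start for the marks. Reads were aligned with BWA to mm9, and SAMtools is also named, per the submitters' processing notes. Tool versions, how reads were counted and scaled, and how reads with several matches were handled: not given in the sources used here. The total H3 library, the repeat table and the DNA methylation libraries were not analysed here.

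The 6 members and the gene lists were chosen with earlier results of these data known. From the RPKM, log2(RPKM + 1) was computed for the 12 Het and KO libraries, genes were kept if 2 libraries or more had an RPKM of at least 1, and limma 3.58.1 in R 4.3.3 fitted 4 group means (eBayes with trend, two-sided, Benjamini-Hochberg over all genes tested, threshold 0.05), which was tested on simulated data. Het1 against Het2 came from a fit of 6 groups. Listed genes were named by the largest change past the threshold (up to 3 per direction) or, with none, the smallest p. A few results under these naming rules are not reported here. Marks, with 1 library per group, were called at 2-fold after adding 0.1 RPKM, at 1 RPKM or more. Promoter calls rest on no replicate. Of the low ChIP values, 29.6% to 50.6% per library lay on the best-fitting step, of 0.0087 to 0.0145 RPKM. The width of the tolerance alone would give 11.0% to 18.4%. The step may be what 1 read is worth, but this is not shown. RNA depth could not be recovered from the low values. Relations were tested by two-sided exact permutation (scipy 1.17.1). Alternatives changed the pseudocount, filter, scaling, controls, replicate block and libraries.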

Additional observations from a re-analysis of the deposited data

Results flagged for a closer look

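Nanos2 RNA in male Het1 replicate 1, at 57.6 RPKM, lay far above the other male Het libraries (1.59 to 9.05 RPKM), with a gap of 0.867 of the group's range against a limit of 0.829 for 4 libraries. Nanos3 RNA in the same library, at 35.78 RPKM, lay above the others at 10.0 to 12.55 RPKM, with a gap of 0.901. The gap was taken on linear RPKM and was not computed on the log scale of the other tests. If RPKM varied normally, which was not checked, chance would pass this limit in about 1 in 20 groups. Of the 12 groups of the 6 genes looked at, Nanos2 in female Het had no spread between libraries and gave no gap. Male Het1 replicate 1 is also 1 of the 4 libraries that stood apart on the second principal component. Whether its Nanos2 and Nanos3 values have 1 source was not tested.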

How the results depend on the processing

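Over 22 alternatives, the female minus male count of 3 called genes fell to 0 with Het1 alone and to 0 with Het2 alone, where only 2 libraries per group remain, and was 1 to 3 with 1 library left out. In KO females the count of 0 rose to 1 (Elavl2) with the replicate block (adjusted p = 0.0477) and with wild type pooled. Over both sexes it rose from 0 to 1 (Elavl2) with no filter, with the replicate block (adjusted p = 0.0427) and with wild type pooled. It was 0 with any 1 library left out in all KO comparisons, which shows little for stability. Leaving out a KO library, or the 4 libraries apart, leaves 1 KO library in a sex, which the fit assumes to vary like the other groups. For H3K9me3 in germ cells against soma, 4 calls became 2 with a pseudocount of 1. With promoter median scaling there were 2 calls, Nanos2 and Ddx4, both higher in germ cells, and none of the 4 lower calls stayed. Directions turned, none of them of a called RNA difference, for Ddx4 between the sexes (0.11 by quantile normalization), for Dazl in KO males (0.0758 by quantile normalization, 0.0441 with Het1 alone, 0.18 without the 4 libraries apart), for Nanos3 in KO males (-0.0482 with Het1 alone), for Dnd1 in KO males (0.00883 with wild type pooled, 0.0904 with Het2 alone), for Nanos3 in KO females (0.11 with Het2 alone), for Nanos3 over both sexes (-0.0347 by quantile normalization, -0.28 with Het1 alone, -0.24 without the 4) and for Dnd1 over both sexes (0.00726 with Het2 alone). Dazl H3K9me3 against soma turned to 0.47 by promoter median scaling. With 1 library left out, KO males gave -0.37 to 0.25 for Dazl, -0.43 to 2.19 for Nanos2, -0.13 to 0.94 for Nanos3 and -0.63 to 0.35 for Dnd1. Nanos3 was -0.53 to 0.0242 in KO females and -0.17 to 0.37 over both sexes, where Dnd1 was -0.47 to 0.0181. The cause of these changes was not tested.

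Over all genes, calls between the sexes went from 4312 to 1159 and 1449 with Het1 or Het2 alone. Those in KO males went from 83 to 185 with no filter, 36 and 39 with Het1 or Het2 alone and 29 without the 4 libraries apart. Those in KO females went from 55 to 30 with a pseudocount of 0.1, 140 with no filter, 23 by median centring, 12 by quantile normalization, 91 with the replicate block, 8 and 2 with Het1 or Het2 alone and 20 without the 4. Both sexes went from 141 to 310, 44, 54 and 57 (no filter, Het1, Het2, without the 4), and the difference of KO effects from 7 to 64 with no filter and 0 with a pseudocount of 0.1 or without the 4. With 1 library left out the counts were 3218 to 4375, 29 to 88, 3 to 164, 53 to 256, 1 to 10 and, for Het1 against Het2, 0 to 3. The labels do not say if equal replicate numbers mark a shared source. Correlations of same-numbered libraries were -0.0401 to 0.565, over 0.1 in 14 of 15 pairs of groups of 2, replicate 1 had the higher score on the second principal component in 6 of 6 groups, and all 4 libraries apart are replicate 1. Whether libraries of equal replicate number share a source was not tested. Wide intervals at n = 2 and unknown RNA depth limit what could be seen.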
